A study of Mus musculus with 21 samples.

Results

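The MAP kinase phosphatase genes *Dusp2*, *Dusp4*, *Dusp5* and *Dusp6* and the Sprouty family genes *Spry1*, *Spry2* and *Spred1* are described here in mouse CD8+ T cells kept in 3 culture media. They are 7 of the 19505 genes with a symbol on the array. They were picked by name from the platform's annotation, with earlier results of these data known. Each had 1 transcript cluster, the array's unit of 1 gene's probes. All 7 had a mean level above the lowest 25% of genes, which ended at 3.67 on a log2 scale. *Spry1* and *Spry2* came closest to it, with means per medium of 4.71 to 5.14 and 4.82 to 5.08. Detection was not assessed, so passing this level does not show that a gene was expressed. T cells from spleens of wildtype mice were activated with beads against CD3 and CD28 for 48 h. The 3 groups were cells in medium conditioned by WEHI 3B cells (AML-conditioned), in medium conditioned by bone marrow derived dendritic cells (DC-conditioned) and in fresh medium, with 7 arrays each, and all the cells were activated. WEHI 3B is a single mouse myelomonocytic leukaemia line, used as the model of acute myeloid leukaemia (AML), and the T cells met only its filtered culture supernatant. CD8+ cells were separated magnetically from the T cell culture at the end, before RNA was taken.

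The kinase ERK carries the signal of the T cell receptor from Ras, RAF and MEK into the nucleus, where it switches on early genes such as *Egr1*. Among the genes it switches on are its own brakes. DUSP proteins remove the activating phosphates from MAP kinases, DUSP2, DUSP4 and DUSP5 in the nucleus and DUSP6 in the cytoplasm. Sprouty proteins act further upstream, between receptors and RAF, and SPRED1 brings neurofibromin to the membrane, where it turns Ras off. Transcript levels of these genes are often read as a trace of recent ERK signalling, but phosphorylated ERK itself was not measured in these samples.

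Values are the authors' RMA levels on a log2 scale, so a difference of 1 is a doubling. The SD describes the spread of the 7 arrays of a medium, and n is 7 in each medium throughout. Differences come from 1 limma fit over all 21 arrays, and a gene is called where its p-value, corrected for all 19505 genes after Benjamini and Hochberg, is under 0.05. The labels call the samples biological replicates and do not say whether equal numbers share a mouse or a day. The 5 CD8 T cell markers averaged 11.3 to 11.5 per array after AML-conditioned medium, 11.3 to 11.6 after DC-conditioned medium and 11.3 to 11.5 in fresh medium, and 0 of them were called. The lists of B cell (5 markers measured), myeloid and dendritic cell (8), NK cell (3) and reticular cell genes (4) also had 0 called, and the myeloid list averaged 3.70 to 3.99 after AML-conditioned medium, 3.72 to 3.99 after DC-conditioned medium and 3.73 to 4.00 in fresh medium. *Cd4* was the only called gene of 3 CD4 T cell markers, at 8.56 after AML-conditioned, 8.02 after DC-conditioned and 7.77 in fresh medium (adjusted p = 0.0150 for AML-conditioned against fresh medium). *Zbtb7b* and *Cd40lg* were also higher after AML-conditioned medium and were not called. They differed by 0.17 and 0.31 from fresh medium (adjusted p = 0.304 and 0.288). From DC-conditioned medium they differed by 0.21 and 0.35 (adjusted p = 0.194 and 0.242). *Ikzf4*, 1 of 2 regulatory T cell markers measured, was called between AML-conditioned medium at 6.60 and DC-conditioned medium at 6.05 (adjusted p = 0.0219). The part of such cells in the results below was not tested, and in bulk RNA fewer cells of a type and less RNA per cell cannot be told apart. Residual component 2 separated AML replicates 4 and 5 (−25.6 and −24.5) from the remaining arrays (−14.2 to 14.8), so values with and without them are given where they matter.

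*Dusp2* was the member that separated AML-conditioned medium from both other media. *Dusp2* encodes a phosphatase of the nucleus that is induced rapidly in activated lymphocytes and acts on ERK and p38. It averaged 7.33 ± 0.38 after AML-conditioned, 6.72 ± 0.15 after DC-conditioned and 6.60 ± 0.20 in fresh medium. In the AML-conditioned arrays its lowest, median and highest levels were 7.04, 7.13 and 7.90. In the DC-conditioned arrays they were 6.44, 6.78 and 6.90, and in fresh medium 6.32, 6.58 and 6.88. All 7 AML-conditioned arrays were thus above all 14 others, which held for 25 of the 19505 genes (0.128%), and DC-conditioned and fresh medium overlapped over almost their whole range.

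*Dusp2* rose in AML-conditioned medium by 0.72 against fresh medium (SE 0.13, 95% interval 0.46 to 0.99, 1.65-fold, adjusted p = 0.00324). Against DC-conditioned medium it rose by 0.61 (SE 0.13, interval 0.34 to 0.87, 1.52-fold, adjusted p = 0.0122). Between DC-conditioned and fresh medium the difference was 0.12 (interval −0.15 to 0.38, adjusted p = 0.936). The size rested in part on AML replicates 4 and 5, at 7.90 and 7.84 against 7.04 to 7.23 in the other 5 AML-conditioned arrays. Without these 2 arrays the difference was 0.51 against fresh medium (adjusted p = 0.0108) and 0.39 against DC-conditioned medium (adjusted p = 0.0577), and the call against DC-conditioned medium was lost.

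The *Dusp2* promoter is shown because *Dusp2* had the smallest adjusted p of the 7 genes and because the window holds a match to the motif of EGR proteins such as that of *Egr1*, whose values follow further on. The sequence is chr2:127335909-127336208 on the plus strand of GRCm38.p6, from 250 bases before to 50 after the transcription start, from RefSeq. Capitals mark the EGR match, at positions −98 to −90 from the start.
Dusp2 promoter: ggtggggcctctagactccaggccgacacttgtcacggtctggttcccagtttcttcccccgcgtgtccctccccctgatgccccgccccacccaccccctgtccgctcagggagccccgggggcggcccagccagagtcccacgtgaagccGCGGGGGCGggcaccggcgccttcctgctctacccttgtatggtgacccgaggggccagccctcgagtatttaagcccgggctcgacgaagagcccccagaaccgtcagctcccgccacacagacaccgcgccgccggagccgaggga

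The EGR motif was searched as GCGNGGGCG on both strands, and 5.55% of the 32851 mouse promoters of this length hold it. Promoter sequences were matched for 6 of the 7 genes. The other motifs searched were AP-1 as TGANTCA (7.81% of promoters), CRE as TGACGTCA (1.79%), ETS as CCGGAAGT (3.89%), GAS as TTCNNNGAA (8.30%) and the CArG box of SRF (1.63%). A match describes the letters of the window and is not evidence of binding. *Dusp6*, *Spry1*, *Spry2* and *Spred1* had no match to the 6 motifs in their windows.

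**Figure D1:**
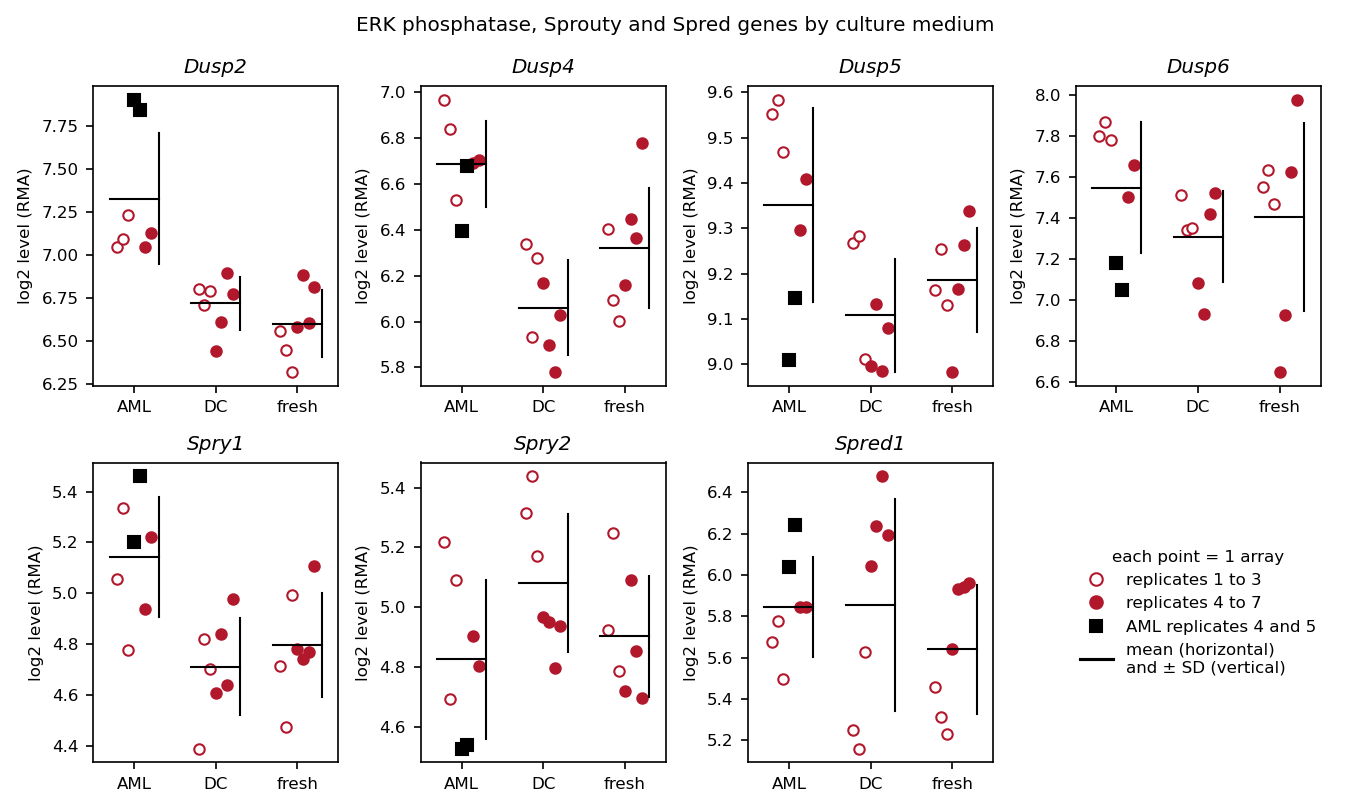
Log2 level of each of the 7 genes (vertical axes) on each of the 21 arrays, by medium from AML-conditioned on the left through DC-conditioned to fresh medium on the right. Open points are replicates 1 to 3, filled points replicates 4 to 7 and black squares AML replicates 4 and 5, the lines give the mean ± SD (n = 7), and *Dusp2* is the panel where all AML-conditioned arrays, from 7.04 upward, lie above all the others.

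*Dusp4* differed most between the 2 conditioned media, with fresh medium between them. Its product is an inducible nuclear phosphatase for ERK and JNK. The AML-conditioned arrays had a lowest level of 6.39, a median of 6.69 and a highest of 6.97. The DC-conditioned arrays had 5.78, 6.03 and 6.34, and the fresh-medium arrays 6.00, 6.37 and 6.78. AML-conditioned and DC-conditioned arrays did not overlap, while fresh medium overlapped both.

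Against DC-conditioned medium *Dusp4* rose by 0.63 in AML-conditioned medium (SE 0.11, interval 0.40 to 0.86, 1.54-fold, adjusted p = 0.00364). Against fresh medium the difference was 0.37 (SE 0.11, interval 0.14 to 0.60, adjusted p = 0.0770), which missed the threshold and passed it without fresh replicate 7 (0.44, adjusted p = 0.0254). DC-conditioned medium was 0.26 below fresh medium (SE 0.11, interval −0.49 to −0.03). That was the only difference of the 7 genes between these media with an unadjusted p under 0.05 in limma, and its adjusted p in that fit was 0.744. Unlike *Dusp2*, *Dusp4* was not raised in AML replicates 4 and 5, which had 6.39 and 6.68, and without them the difference from DC-conditioned medium was 0.69 (adjusted p = 0.00807).

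*Dusp5* had small differences between media. It encodes a nuclear phosphatase that acts on ERK and also holds it in the nucleus. The lowest, median and highest levels were 9.01, 9.41 and 9.58 after AML-conditioned medium, 8.99, 9.08 and 9.28 after DC-conditioned medium, and 8.98, 9.17 and 9.34 in fresh medium. AML replicates 4 and 5, at 9.01 and 9.15, were below the other 5 AML-conditioned arrays, which had 9.30 to 9.58. The difference from fresh medium was 0.17 (SE 0.09, interval −0.01 to 0.34, adjusted p = 0.355). From DC-conditioned medium it was 0.24 (SE 0.09, interval 0.07 to 0.42, adjusted p = 0.148), and without AML replicates 4 and 5 it was 0.35 and passed the threshold (adjusted p = 0.0398). Array levels of different genes depend on their probes and are not set against each other.

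The *Dusp5* promoter is shown because it was the other matched member with a motif, a pair of adjoining CArG boxes, the motif of the factor SRF that acts with ETS partners downstream of ERK. It is chr19:53528895-53529194 on the plus strand of GRCm38.p6, from RefSeq. Capitals mark both boxes, CCATATTTGG at positions −82 to −73 and CCTTATATGG at −72 to −63 from the start.
Dusp5 promoter: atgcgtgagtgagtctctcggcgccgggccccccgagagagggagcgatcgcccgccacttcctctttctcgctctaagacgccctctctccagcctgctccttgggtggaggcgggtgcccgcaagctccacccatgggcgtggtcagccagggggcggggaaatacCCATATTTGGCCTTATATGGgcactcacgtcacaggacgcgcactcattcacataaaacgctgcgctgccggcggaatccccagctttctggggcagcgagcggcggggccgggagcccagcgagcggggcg

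*Dusp6* spread more between replicates than between media. It encodes the cytoplasmic phosphatase specific for ERK. The lowest, median and highest levels were 7.05, 7.66 and 7.87 after AML-conditioned medium, 6.93, 7.35 and 7.52 after DC-conditioned medium, and 6.65, 7.55 and 7.98 in fresh medium. In each medium the lowest arrays were replicates 4 and 5. These had 7.18 and 7.05 after AML-conditioned medium, 7.08 and 6.93 after DC-conditioned medium, and 6.65 and 6.93 in fresh medium, against at least 7.50, 7.34 and 7.47 in the other 5 arrays of the same media. The fitted difference was 0.14 for AML-conditioned against fresh medium (SE 0.17, interval −0.20 to 0.49, adjusted p = 0.749) and 0.24 against DC-conditioned medium (SE 0.17, interval −0.10 to 0.58, adjusted p = 0.568).

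*Egr1* and *Nr4a1*, early genes of T cell receptor signalling, set these 2 replicates apart in another way. *Egr1* had 10.30 and 10.31 in AML replicates 4 and 5, above the 8.30 to 8.98 of the other AML-conditioned arrays. In DC-conditioned replicates 4 and 5 it had 6.70 and 6.52, and in fresh-medium replicates 4 and 5 it had 6.86 and 7.01, in both media below the other 5 arrays. *Nr4a1* had 9.12 and 8.998 in AML replicates 4 and 5, against 7.19 to 7.91 in the other AML-conditioned arrays. Replicates 4 and 5 thus held the highest *Dusp2*, *Egr1* and *Nr4a1* and the lowest *Dusp5* and *Dusp6* of the AML-conditioned arrays. They also held the lowest *Spry2* (4.53 and 4.54, against 4.69 to 5.22) and the highest *Spred1* (6.04 and 6.24, against 5.50 to 5.85). Without replicates 4 and 5 of all 3 media, *Dusp2* was still called between AML-conditioned and fresh medium (0.56, adjusted p = 0.00613), while its difference from DC-conditioned medium was 0.31 and lost its call (adjusted p = 0.167). In that fit *Egr1* (0.39, adjusted p = 0.272) and *Nr4a1* (0.32, adjusted p = 0.339) were not called against fresh medium. Against DC-conditioned medium *Egr1* kept its call there and *Nr4a1* lost it (0.53, adjusted p = 0.108).

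Among the 7 genes, *Spry1* was the Sprouty gene with a called difference. *Spry4*, outside the 7, was called in the same comparison and follows further on. *Spry1* encodes an inhibitor of Ras and ERK signalling that also dampens T cell receptor signals. Its lowest, median and highest levels were 4.78, 5.20 and 5.46 after AML-conditioned medium, 4.39, 4.70 and 4.98 after DC-conditioned medium, and 4.47, 4.77 and 5.11 in fresh medium. All 3 media overlapped, and 5 of 7 AML-conditioned arrays were above all DC-conditioned arrays. *Spry1* rose by 0.43 in AML-conditioned against DC-conditioned medium (SE 0.11, interval 0.21 to 0.65, 1.35-fold, adjusted p = 0.0289). The difference from fresh medium was 0.35 (SE 0.11, interval 0.12 to 0.57, adjusted p = 0.0823), and it passed the threshold without AML replicate 3 (0.41, adjusted p = 0.0404) or without fresh replicate 7 (0.40, adjusted p = 0.0475).

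The *Spry1* call against DC-conditioned medium was fragile in its p-value and steady in its size. It was lost in 14 of 35 alternative settings, with differences of 0.36 to 0.49 over all of them. Further quantile normalization lost it (0.40, adjusted p = 0.0513), as did leaving out any 1 of AML replicates 2, 4 and 5 or DC replicates 1, 3, 4 and 6 (0.38 to 0.43, adjusted p = 0.0503 to 0.0853).

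*Spry2* and *Spred1* had no called difference. *Spry2*, a close relative of *Spry1*, had lowest, median and highest levels of 4.53, 4.80 and 5.22 after AML-conditioned medium, 4.80, 4.97 and 5.44 after DC-conditioned medium, and 4.70, 4.85 and 5.25 in fresh medium. Its difference was −0.26 for AML-conditioned against DC-conditioned medium (SE 0.12, interval −0.50 to −0.02, adjusted p = 0.304), opposite in sign to that of *Spry1*, and −0.08 against fresh medium (interval −0.32 to 0.16, adjusted p = 0.822). *Spred1* had 5.50, 5.85 and 6.24 after AML-conditioned medium, 5.16, 6.04 and 6.48 after DC-conditioned medium, and 5.23, 5.64 and 5.96 in fresh medium. Its intervals were wide, at −0.16 to 0.57 around 0.21 for AML-conditioned against fresh medium (adjusted p = 0.633) and −0.38 to 0.36 around −0.01 against DC-conditioned medium (adjusted p = 0.991).

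**Figure D2:**
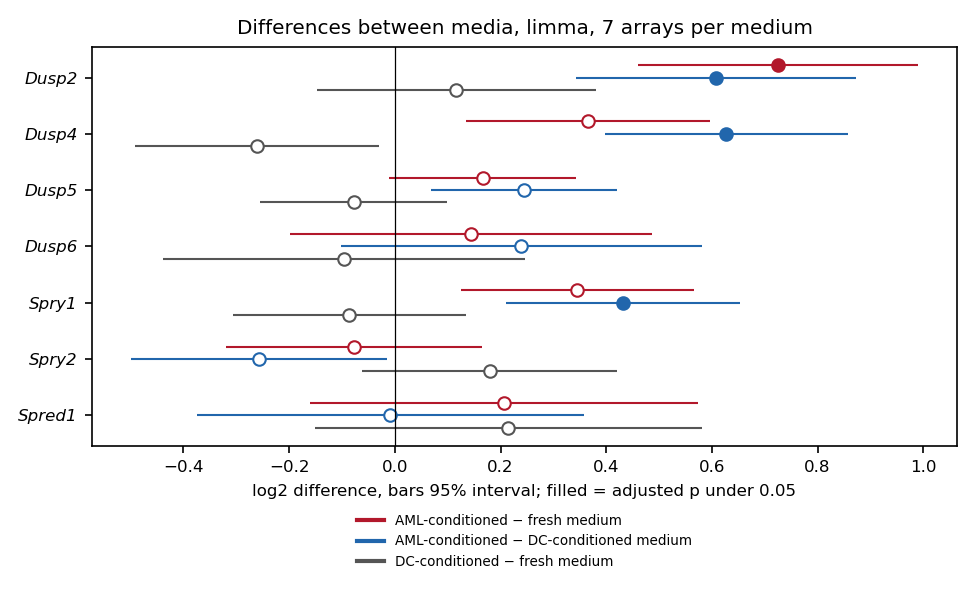
Log2 difference (horizontal axis) of each of the 7 genes in the 3 comparisons, with the 95% interval of the limma fit. Filled points passed an adjusted p of 0.05, which were *Dusp2* against both other media, and *Dusp4* and *Spry1* against DC-conditioned medium.

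Counted together, 1 of the 7 genes was higher and 0 lower in AML-conditioned than in fresh medium, beside 541 of all 19505 genes (2.77%) called in that comparison, 1.3% higher and 1.48% lower. An unadjusted p under 0.05 was reached by 3 of the 7, beside 15.9% of all genes. Their median difference was 0.21, against −0.01 over all genes. Between AML-conditioned and DC-conditioned medium 3 of 7 were higher and 0 lower, beside 466 of all genes (2.39%), 1.13% higher and 1.26% lower. An unadjusted p under 0.05 was reached by 5 of the 7, beside 14.3% of all genes, and the median was 0.24 for the 7 and 0.01 for all genes. Between DC-conditioned and fresh medium 0 of 7 and 0 of all genes (0%) were called, with 1 of 7 at an unadjusted p under 0.05 beside 6.41% of all genes. *Dusp2* alone of the 7 had no overlap between AML-conditioned and fresh medium, which held upward for 0.354% of all genes. *Dusp2* and *Dusp4* had none between AML-conditioned and DC-conditioned medium, which held upward for 0.436%. The 2 comparisons with AML-conditioned medium share its arrays.

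The replicates fell into sets 1 to 3 and 4 to 7 on the first residual component (−25.5 to −4.12 in the first set, −0.04 to 16.2 in the second), and the 7 genes differed in how far the medium's effect recurred in both. The labels name no batch, so this split comes from the data. *Dusp2* was 0.68 higher in AML-conditioned than in fresh medium in replicates 1 to 3 and 0.76 higher in replicates 4 to 7. *Spry1* was likewise 0.33 and 0.36 higher. *Dusp4* was 0.61 higher in replicates 1 to 3 and 0.18 in replicates 4 to 7, and *Dusp5* 0.35 and 0.03, so for these genes most of the difference from fresh medium lay in replicates 1 to 3.

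Against DC-conditioned medium the order changed. *Dusp4* was 0.60 higher in AML-conditioned medium in replicates 1 to 3 and 0.65 higher in replicates 4 to 7, and *Spry1* 0.42 and 0.44. *Dusp2* was 0.35 and 0.80 higher, the larger value in the set that holds AML replicates 4 and 5. That set also holds DC replicates 4 and 5, at 6.44 and 6.61 against 6.71 to 6.90 in the other DC-conditioned arrays. Between DC-conditioned and fresh medium the *Dusp4* difference was 0.02 in the first set and −0.47 in the second. Tested on 1 set alone, *Dusp2* kept its call against fresh medium in replicates 1 to 3 and missed it in replicates 4 to 7 (adjusted p = 0.110), and against DC-conditioned medium 0 of 7 genes were called in either set. No test of the difference between the sets was made.

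*Spred1* followed the sets more than the media. In AML-conditioned medium it had 5.50 to 5.78 in replicates 1 to 3 and 5.85 to 6.24 in replicates 4 to 7. In DC-conditioned medium it had 5.16 to 5.63 and 6.04 to 6.48, and in fresh medium 5.23 to 5.46 and 5.64 to 5.96. The sets did not overlap in any medium. They were drawn from these same arrays, and the share of all genes without such overlap was not worked out. *Spred1* was 0.30 higher in AML-conditioned than in DC-conditioned medium in replicates 1 to 3 and 0.24 lower in replicates 4 to 7, the values behind the overall difference of −0.01.

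**Figure D3:**
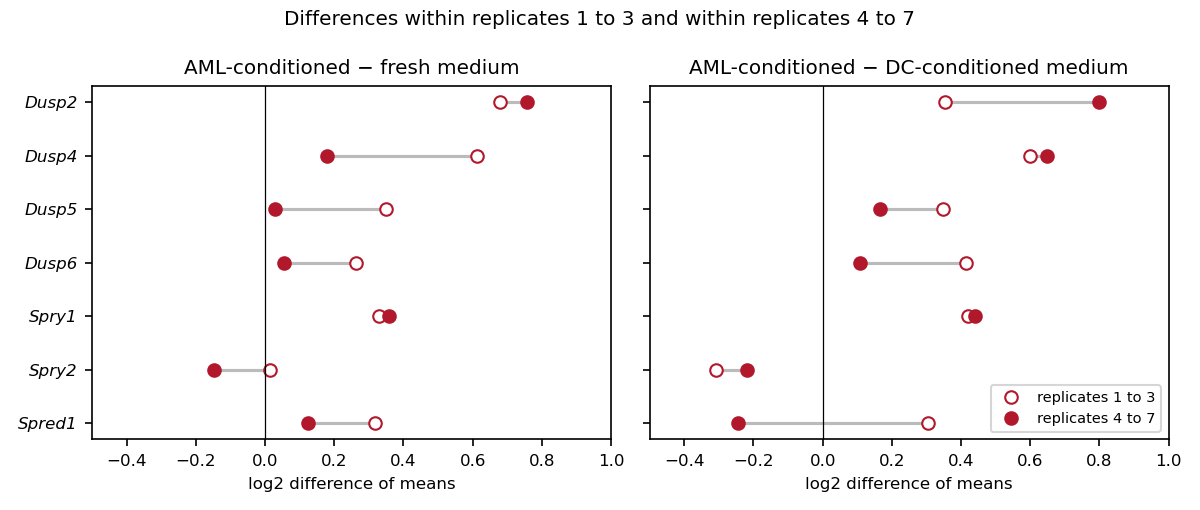
Log2 difference of means (horizontal axes) of the 7 genes within replicates 1 to 3 (open points) and within replicates 4 to 7 (filled points), AML-conditioned against fresh medium on the left and against DC-conditioned medium on the right. The points of *Spry1* lie close together in both panels, while those of *Spred1* lie on opposite sides of 0 on the right (0.30 and −0.24).

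Other genes of the pathway were counted on 7 lists, with 74 of 84 genes measured. Over all lists 4 were higher and 1 lower in AML-conditioned than in fresh medium, and 4 higher and 1 lower against DC-conditioned medium, beside 2.77% and 2.39% of all genes. Between DC-conditioned and fresh medium 0 of 74 were called, with 7 at an unadjusted p under 0.05 in limma, beside 0% and 6.41% of all genes.

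Among 6 other MAP kinase phosphatases, 0 rose and 1 fell in AML-conditioned against fresh medium, beside 1.3% and 1.48% of all genes. Against DC-conditioned medium 0 of the 6 were called, beside 2.39% of all genes. *Dusp9*, a cytoplasmic ERK phosphatase related to *Dusp6*, averaged 4.95 ± 0.09 after AML-conditioned medium, 5.11 ± 0.15 after DC-conditioned medium and 5.34 ± 0.23 in fresh medium. It fell by 0.39 against fresh medium (SE 0.09, adjusted p = 0.0177), with 6 of 7 AML-conditioned arrays below all fresh-medium arrays. The call was lost without AML replicates 4 and 5 (−0.42, adjusted p = 0.0532) and in replicates 4 to 7 alone (−0.19, adjusted p = 0.374), against −0.65 in replicates 1 to 3 alone (adjusted p = 0.00836). *Dusp10*, a phosphatase of JNK and p38, differed by 0.46 (adjusted p = 0.0762) and was called without AML replicate 6 or 7 (0.54 and 0.53, adjusted p = 0.0200 and 0.0331).

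Among 4 other Sprouty and Spred genes, 1 was called against DC-conditioned and 0 against fresh medium, beside 2.39% and 2.77% of all genes. The called gene, *Spry4*, rose by 0.27 in AML-conditioned against DC-conditioned medium (SE 0.07, adjusted p = 0.0233). *Spry4* averaged 4.52 ± 0.12 after AML-conditioned, 4.24 ± 0.11 after DC-conditioned and 4.44 ± 0.06 in fresh medium, so that its mean was lowest after DC-conditioned medium. The mean levels of *Dusp4*, *Dusp5*, *Dusp6* and *Spry1* had the same order of media. Between DC-conditioned and fresh medium 0 of all genes were called, *Spry4* included. Its means were below those of *Spry1* and *Spry2*, and detection was not assessed. The *Spry4* call was lost without AML replicate 3, DC replicate 2 or DC replicate 7 (0.24 to 0.27, adjusted p = 0.0502 to 0.0530) and after further quantile normalization (0.25, adjusted p = 0.0502). *Spry3* (0.12) and *Spred2* (0.08) differed little between AML-conditioned and fresh medium.

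Upstream of ERK 1 of 14 genes from the T cell receptor to Ras was called against fresh medium, beside 2.77% of all genes. This was *Sos1*, whose product loads Ras with GTP. It rose by 0.36 in AML-conditioned against fresh medium (SE 0.09, adjusted p = 0.0256). All 7 of its AML-conditioned arrays were above all fresh-medium arrays, which held for 0.354% of all genes. They were also above all DC-conditioned arrays, with a lowest of 9.03 against highest levels of 8.97 after DC-conditioned and 9.01 in fresh medium. Standing above all 14 others held for 0.128% of all genes. Against DC-conditioned medium 0 of the 14 were called, beside 2.39% of all genes. An unadjusted p under 0.05 in limma was reached by 5 of the 14, beside 14.3% of all genes. *Sos1* differed by 0.29 from DC-conditioned medium (adjusted p = 0.0768). That difference was called without fresh replicate 1 (adjusted p = 0.0301) and after further quantile normalization (0.32, adjusted p = 0.0318). Of 9 genes of the Ras, RAF, MEK and ERK cascade, 0 were called in either comparison. An unadjusted p under 0.05 in limma was reached by 2 of the 9 against fresh medium, beside 15.9% of all genes. Against DC-conditioned medium it was reached by 4 of the 9, beside 14.3%. *Map2k1*, the gene of MEK1, differed by −0.26 against fresh medium (adjusted p = 0.221) and −0.37 against DC-conditioned medium (adjusted p = 0.0663). Without AML replicate 6 or 7 the *Map2k1* difference from DC-conditioned medium was called (−0.43 in both, adjusted p = 0.0179 and 0.0239). Of 17 other brakes on the receptor and on Ras, 1 was called against fresh and 1 against DC-conditioned medium, beside 2.77% and 2.39% of all genes. An unadjusted p under 0.05 in limma was reached by 8 and 7 of the 17, beside 15.9% and 14.3%. *Rasa2*, a GTPase-activating protein for Ras, rose by 0.35 against fresh medium (SE 0.09, adjusted p = 0.0274). *Errfi1*, an inhibitor of the EGF receptor, fell by 0.63 against DC-conditioned medium (SE 0.13, adjusted p = 0.0122), and that call was lost without AML replicates 4 and 5 together (−0.52, adjusted p = 0.103).

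Of 17 transcripts known as induced through ERK, 2 rose and 0 fell in both comparisons, beside 1.3% and 1.13% of all genes higher. Their median was 0.28 against fresh and 0.17 against DC-conditioned medium, beside −0.01 and 0.01 over all genes. An unadjusted p under 0.05 in limma was reached by 8 and 9 of the 17, beside 15.9% and 14.3% of all genes. *Egr1* averaged 9.15 ± 0.82 after AML-conditioned, 7.33 ± 0.51 after DC-conditioned and 7.90 ± 0.70 in fresh medium, and rose by 1.24 against fresh medium (SE 0.32, adjusted p = 0.0350) and by 1.82 against DC-conditioned medium (adjusted p = 0.00348). *Nr4a1* rose by 0.86 (adjusted p = 0.0372) and 1.02 (adjusted p = 0.0156). The *Egr1*, *Nr4a1*, *Sos1* and *Rasa2* calls against fresh medium were each lost when either AML replicate 4 or 5 was left out. Leaving out single fresh-medium arrays also ended them, replicates 1, 3, 4 and 5 for *Egr1*, any of the 7 (or AML replicate 2) for *Nr4a1*, 2 and 4 for *Sos1*, and 1 to 4 for *Rasa2*. The adjusted p-values then lay between 0.05003 and 0.101. Against DC-conditioned medium the *Egr1* call held in 34 of 35 alternative settings, with differences of 1.06 to 2.30, and the *Nr4a1* call in 32. Of 7 p38 and JNK kinases, 0 were called against fresh and 1 against DC-conditioned medium, beside 2.77% and 2.39% of all genes. *Mapk11*, which encodes p38 beta, rose by 0.48 against DC-conditioned medium (SE 0.11, adjusted p = 0.0177). That call was lost in replicates 4 to 7 alone (0.32, adjusted p = 0.158) and without replicates 4 and 5 of all media (0.50, adjusted p = 0.112). Against fresh medium *Mapk11* differed by 0.19 (adjusted p = 0.412), with 0.58 in replicates 1 to 3 alone, where it was called (adjusted p = 0.0380), and −0.10 in replicates 4 to 7.

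**Figure D4:**
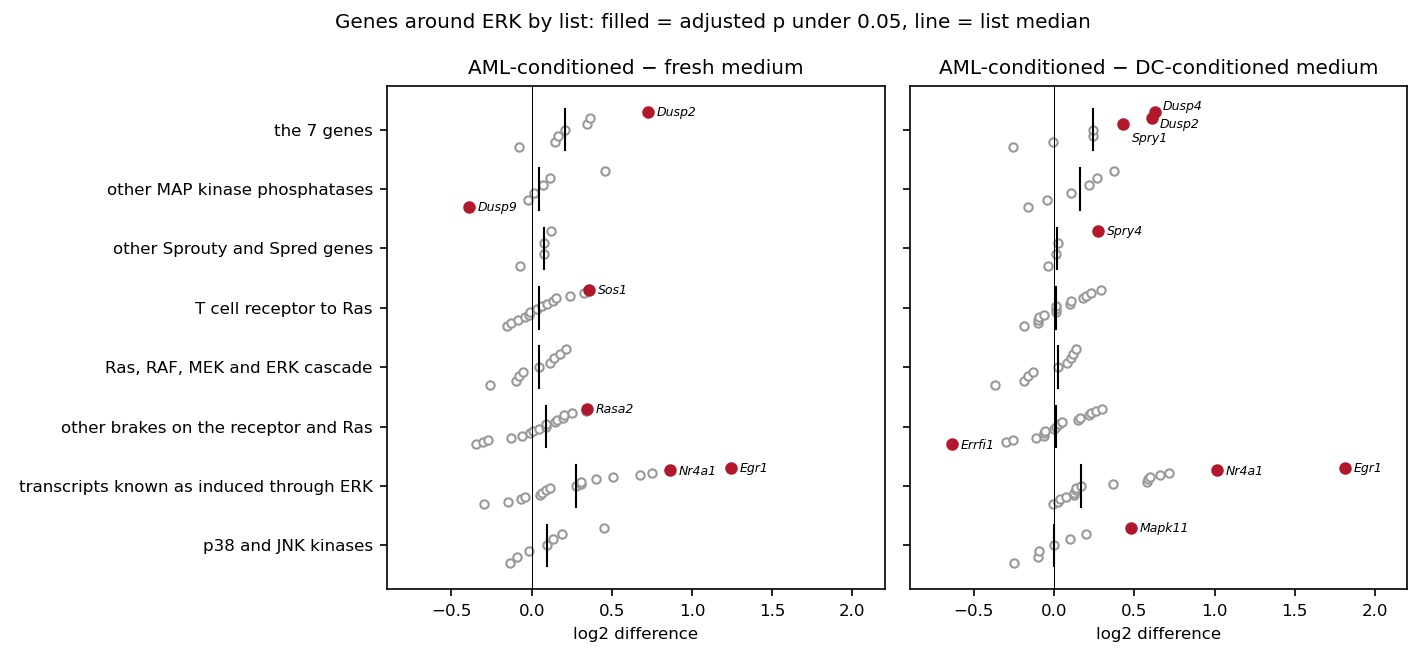
Log2 difference (horizontal axes) of the 7 genes and of the measured genes of 7 pathway lists, AML-conditioned against fresh medium on the left and against DC-conditioned medium on the right. Each point is a gene, filled points passed an adjusted p of 0.05, and the vertical line is the median of the list, which for the ERK-induced transcripts was 0.28 and 0.17.

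Across the 21 arrays the 7 genes did not move as 1 group. Of 21 pairs, 15 correlated above 0 over all arrays and 10 did after each medium's mean was subtracted. *Dusp5* and *Dusp6* were the closest pair, with r = 0.72 over all arrays and 0.71 within media. *Dusp2* and *Dusp4* correlated at 0.50 over all arrays and at −0.04 within media, and *Dusp2* and *Dusp5* at 0.16 and −0.51. The last value leans on AML replicates 4 and 5, with the highest *Dusp2* (7.90 and 7.84) and lowest *Dusp5* (9.01 and 9.15) of their medium. Correlations without these 2 arrays were not worked out. *Spry1* ran against *Spry2* (−0.66 and −0.62), and *Spry2* against *Spred1* (−0.58 and −0.71), while *Spry2* and *Dusp5* correlated at 0.21 over all arrays and 0.60 within media. These arrays share 3 media and the 2 sets of replicates, so the values describe the arrays and carry no test.

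**Figure D5:**
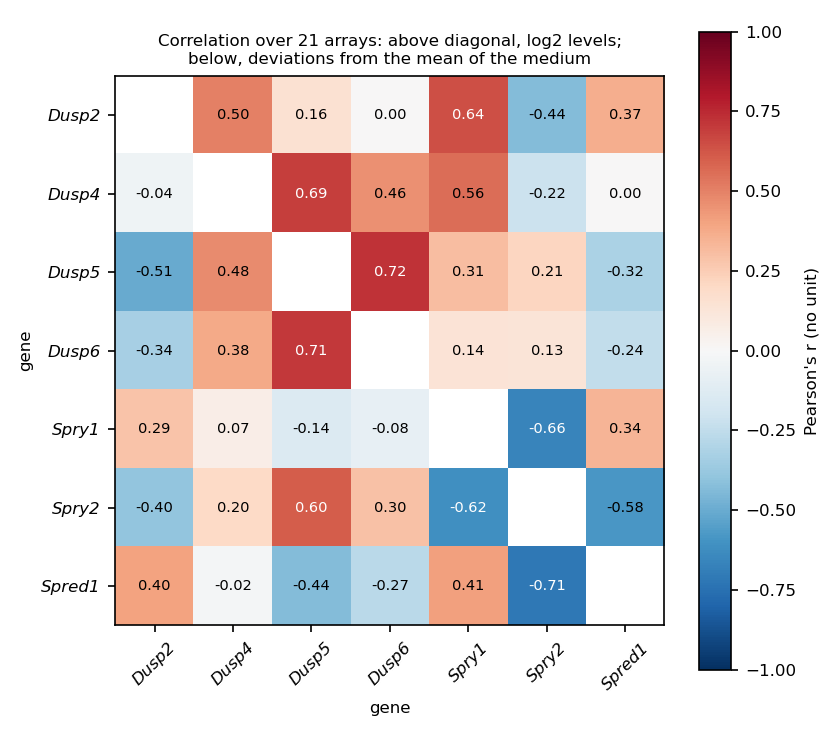
Pearson correlation of each pair of the 7 genes over the 21 arrays (colour scale from −1 to 1), with log2 levels above the diagonal and deviations from the mean of the medium below it. *Dusp5* and *Dusp6* have like values on both sides (0.72 and 0.71), while *Dusp2* and *Dusp4* do not (0.50 and −0.04).

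The genes most like each member, by Pearson r over the 21 arrays among all named genes, differed from member to member. For *Dusp2* they were *Gucy1b1* (0.908), *Gpr83* (0.904) and *Tmie* (0.901), at 0.795 to 0.830 within media. For *Dusp4* they were *Zfp628* (0.782), *Slamf1* (0.765) and *Tlr7* (0.748), with the lower values of 0.613, 0.389 and 0.304 within media. For *Dusp5* they were *Slc25a12* (0.884), *Cradd* (0.834) and *Tab3* (0.825), at 0.869 to 0.893 within media. For *Dusp6* the closest was *Fasl*, the ligand that triggers death through FAS, at 0.766, then *Tox3* (0.741) and *Ly6c1* (0.735), at 0.761 to 0.794 within media.

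For *Spry1* the closest was *Tgfb1*, which encodes the cytokine TGF-beta 1, at 0.848 over all arrays and 0.730 within media, followed by *Atn1* (0.821 and 0.623) and *Atxn2* (0.818 and 0.626). For *Spry2* they were *Tpcn1* (0.809), *Fcgrt* (0.808) and *Klrb1f* (0.797), at 0.749 to 0.770 within media. *Spred1* had the highest values of all, with *Nme1* (0.938), *Prmt1* (0.933) and *Hyou1* (0.929), a nucleoside kinase, an arginine methyltransferase and a chaperone of the endoplasmic reticulum. Within media these were 0.931 to 0.944, where the sets of replicates still differ.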

How the data were processed

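RNA of 21 samples was hybridised to 1-colour Affymetrix arrays. The deposited values are log2 levels per transcript cluster, which the authors computed by RMA with the oligo package, according to the submitters' processing notes. The versions are not given in the sources used here. RMA gives no separate signal over background, so detection on an array was not assessed and differences of low genes may be compressed. Of 22203 clusters, 19572 had 1 symbol in the platform annotation and 2631 none. For 55 symbols with several clusters the one with the highest mean was kept, which left 19505 genes.

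The tests used limma 3.58.1 in R 4.3.3, lmFit and eBayes, over all arrays without covariates or a level filter, two-sided. The fit was tested on simulated data. The number of arrays limits the precision, with a median SE of 0.0937 for AML-conditioned against fresh medium.

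The 7 genes and all lists were chosen with earlier results of these data known. Pathway genes were named by rule, at most 4 called per list by adjusted p, otherwise 2 by size of difference. *Egr1* was always named, *Cd4* and the CD8 genes as markers. The replicate values of *Egr1* and *Nr4a1* and the values of *Ikzf4*, *Zbtb7b* and *Cd40lg* were picked after they were seen, as were 5 of the alternatives. 1 label field names reticular cells, and the groups follow the other fields. Some genes of the pathway lists are not reported here.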

Additional observations from a re-analysis of the deposited data

How the results depend on the processing

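Of 35 alternatives, 5 were chosen after the data were seen: AML replicates 4 and 5 left out, replicates 4 and 5 of all media left out, replicates 1 to 3 alone, replicates 4 to 7 alone, and a block for these sets. The 7 genes called in AML-conditioned against fresh medium were 0 in replicates 4 to 7 alone and 1 to 3 without single arrays (2 without AML replicate 3, 3 without fresh replicate 7). Against DC-conditioned medium they were 0 in either set alone, 1 without replicates 4 and 5 of all media, and 2 to 3 without single arrays. Between DC-conditioned and fresh medium they were 0 in all 35. The *Dusp2* call against fresh medium held in 34 of 35, and against DC-conditioned medium in 31. The *Dusp4* call against DC-conditioned medium held in 33, lost in the sets alone (adjusted p = 0.0833 and 0.0515). *Dusp5* against DC-conditioned medium was called with array weights (0.31, adjusted p = 0.0293).

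Whether the replicate numbers pair samples was not settled. Of 21 same-numbered pairs, 13 correlated above 0.1, over a range of −0.11 to 0.36. In 10 of the 21 pairs the array matched best with its own number. No chance rate was worked out for these counts, and the main fit has no term for the replicate number. With the replicate block, 1012 genes were called in AML-conditioned against fresh medium, 784 against DC-conditioned medium and 1 between DC-conditioned and fresh medium, and 11, 10 and 0 of the pathway genes. The random replicate block gave 8 and 8 pathway genes and 1 gene for DC-conditioned against fresh medium. The block changed no call among the 7 genes, and of the other named genes it added *Dusp10*, *Lcp2* and *Mapk8* against fresh medium (adjusted p = 0.0349, 0.0386 and 0.0374) and *Map2k1* and *Sos1* against DC-conditioned medium (0.0151 and 0.0426). The block for the sets gave 1026, 797 and 1 genes, and 10 and 9 pathway genes.

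For AML-conditioned against fresh medium, all genes called were 246 with only these groups, 111 without AML replicates 4 and 5, 56 without replicates 4 and 5 of all media, 32 in replicates 4 to 7 alone and 218 to 776 without single arrays (249 and 218 without AML replicates 4 and 5 singly, 299 and 341 without fresh replicates 2 and 4). Pathway genes were 3 with trend and robust estimation, 1 with array weights, 1 with only these groups, 0, 1 and 0 in the same 3 reduced sets, and 1 to 12 without single arrays (1, 1, 12 and 8 without AML replicates 4, 5, 6 and 7, 2, 2, 2, 1 and 3 without fresh replicates 1 to 5). For AML-conditioned against DC-conditioned medium, all genes were 249, 92, 58 and 43 in these settings in the same order, and 220 to 784 without single arrays (220, 242 and 784 without AML replicates 4, 5 and 6, 308 and 289 without DC replicates 4 and 7). Pathway genes were 1 without replicates 4 and 5 of all media, 0 in replicates 4 to 7 alone and 4 to 10 without single arrays (10 and 8 without AML replicates 6 and 7). For DC-conditioned against fresh medium, 2 genes were called with array weights, 1 without AML replicates 4 and 5, and 0 to 2 without single arrays (2 without DC replicate 2, 1 without AML replicate 5, DC replicates 1, 3 and 4 or fresh replicate 6).

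Signs turned for differences not called over all 21 arrays. In replicates 1 to 3 alone they were *Spry2* 0.015 and *Spred2* −0.039 against fresh medium, *Spred1* 0.30 and *Spred2* 0.037 against DC-conditioned medium, and for DC-conditioned against fresh medium *Dusp4* 0.016 and *Dusp5* 0.0038. In replicates 4 to 7 alone they were *Mapk11* −0.10 for AML-conditioned and *Dusp2* −0.040 for DC-conditioned against fresh medium. *Spry2* was 0.040 without AML replicates 4 and 5 and 0.041 without replicates 4 and 5 of all media, where *Spred2* was −0.069 against fresh and *Spry3* −0.0071 against DC-conditioned medium. Without single arrays, differences from DC-conditioned medium ran from −0.12 to 0.10 for *Spred1*, −0.038 to 0.061 for *Spry3*, −0.087 to 0.012 for *Spred2* and −0.016 to 0.057 for *Rps6ka3*. The cause was not tested. Quantile normalization or centring moved the median of all genes by at most 0.032.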
